A study of Rattus norvegicus with 12 samples.

Results

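The genes described here are 32 genes of the interferon response and of antigen processing, read in RNA-seq of rat hearts 12 weeks after surgery. They were taken by symbol from the gene table, in which each symbol matched exactly 1 of 34700 rows, and all 32 were counted well enough to be tested in every comparison. The hearts came from male Sprague-Dawley rats operated at 8 weeks of age, with 3 rats in each of 4 groups. In Sham rats the thread was passed under the left anterior descending coronary artery and not tied, and in the other 3 groups the artery was ligated to cause a myocardial infarction. HF rats stayed sedentary, HFE rats trained on a treadmill (60 min a session, 5 sessions a week, 8 weeks), and BAIBA rats were given β-aminoisobutyric acid, a small molecule released by working muscle, at 75 mg/kg per day by gavage over 8 weeks. The labels give these treatments as HF+Sedentary, HF+Exercise and HF+BAIBA, and the sample titles shorten them to HF+Sed, HF+Exe and HF+Med. The paper describes an exercise and a BAIBA experiment, each with Sham and HF groups. In the BAIBA experiment its methods give water by gavage to Sham and HF rats, while its supplement says these groups were treated with BAIBA. Which experiment the sequenced Sham and HF rats came from is not stated outright. The supplement names transcriptomic sequencing among the uses of hearts from the exercise experiment. For hearts from the BAIBA experiment it names biochemical analysis only, although BAIBA hearts were sequenced. The RNA came from the anterior wall of the left ventricle, which for HF and BAIBA rats is described as the area around the infarct, so each library is a mix of heart muscle and whatever other cells the piece held.

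Interferons are secreted proteins that warn cells of infection or of nucleic acids in the wrong place. Type I interferons act through factors that include STAT2 and IRF9 and bind a short DNA element, the interferon-stimulated response element (ISRE), while interferon gamma acts on another element, the gamma-activated site (GAS). The genes switched on include sensors of viral RNA, antiviral enzymes, the ubiquitin-like protein ISG15, guanylate-binding proteins and the machinery that cuts proteins into peptides and loads them on MHC class I. In the injured heart this programme is known to be run by infiltrating myeloid cells and also by cardiomyocytes, endothelial cells and fibroblasts.

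The total count per rat lay between 14812541 and 19732588 reads. Summed markers of cardiomyocytes lay between 32270 and 41390 CPM (counts scaled to a common library size) over the 12 rats, which fits the labelled tissue. Of the infarcted hearts, 2 stood out in markers of T cells or of macrophages and mesothelium. All 7 T cell markers were highest in HF rat 1, where they summed to 268 CPM, against 16.3 to 46.8 CPM in the other 11 rats. BAIBA rat 1 had the highest macrophage sum, 320 CPM over 8 markers against 88.7 to 237 CPM elsewhere, and the highest sum of 3 mesothelial markers, 64.4 CPM against 17.9 to 35.3 CPM. In whole tissue, fewer cells of a type and less RNA per cell cannot be told apart.

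The ISRE could be read in the promoters of many members. RefSeq promoter windows (GRCr8, 250 bases before the start site to 50 bases after it) were at hand for 23 of the 32 genes. The ISRE core, spelled GAAANNGAAA and searched on both strands, occurred in 16 of these 23 windows, against 3.92% of all 33465 promoter windows. The GAS core, spelled TTCNNNGAA and reading the same on both strands, occurred in 6 of the 23, against 8.87% of all windows. Members without a window were Nlrc5, Ddx58, Dhx58, Zbp1, Mx2, Ifit2, Isg15, Usp18 and Rtp4. The windows below belong to a transcription factor, 2 antiviral genes, a GTPase and 3 antigen presentation genes. They are a selection among the genes whose levels are followed through the text, and all of them hold ISRE letters. Windows of other genes followed are not printed, among them those of Stat2, Mx1, Oasl and Psmb9, which lack these letters. Capitals mark the ISRE letters or their reverse complement, and each window is written along its gene's own strand.
Irf7, chr1:205799974-205800273, minus strand: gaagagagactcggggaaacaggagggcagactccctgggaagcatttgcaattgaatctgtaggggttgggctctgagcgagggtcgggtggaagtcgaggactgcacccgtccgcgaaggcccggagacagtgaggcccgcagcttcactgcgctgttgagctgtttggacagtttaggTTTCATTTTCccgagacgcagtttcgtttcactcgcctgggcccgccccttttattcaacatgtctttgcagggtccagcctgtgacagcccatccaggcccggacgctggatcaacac
Ifit3, chr1:241527076-241527375, plus strand: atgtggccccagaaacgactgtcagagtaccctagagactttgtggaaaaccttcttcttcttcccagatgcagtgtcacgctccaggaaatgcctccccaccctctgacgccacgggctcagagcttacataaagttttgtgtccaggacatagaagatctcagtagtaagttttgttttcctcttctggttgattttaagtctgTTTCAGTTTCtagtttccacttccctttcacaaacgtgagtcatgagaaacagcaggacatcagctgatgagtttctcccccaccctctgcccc
Oas1a, chr12:41330216-41330515, plus strand: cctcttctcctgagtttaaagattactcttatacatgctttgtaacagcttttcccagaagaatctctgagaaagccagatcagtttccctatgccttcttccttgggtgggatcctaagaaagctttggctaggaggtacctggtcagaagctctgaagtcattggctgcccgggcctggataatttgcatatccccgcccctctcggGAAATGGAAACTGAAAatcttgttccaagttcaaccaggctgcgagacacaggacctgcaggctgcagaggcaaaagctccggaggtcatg
Gbp2, chr2:234005477-234005776, plus strand: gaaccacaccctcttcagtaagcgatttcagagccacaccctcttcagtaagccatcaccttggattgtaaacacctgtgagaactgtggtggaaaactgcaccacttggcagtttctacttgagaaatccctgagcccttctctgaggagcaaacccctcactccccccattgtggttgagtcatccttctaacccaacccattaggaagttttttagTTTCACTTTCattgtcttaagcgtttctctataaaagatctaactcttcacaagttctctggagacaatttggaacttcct
Psmb8, chr20:4656982-4657281, minus strand: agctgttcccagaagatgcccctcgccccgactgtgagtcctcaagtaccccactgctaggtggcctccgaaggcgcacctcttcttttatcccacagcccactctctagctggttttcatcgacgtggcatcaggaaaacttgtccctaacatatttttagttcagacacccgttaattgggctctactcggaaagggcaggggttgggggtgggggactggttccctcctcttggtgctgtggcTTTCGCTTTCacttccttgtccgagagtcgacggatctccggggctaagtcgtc
Tap1, chr20:4668494-4668793, minus strand: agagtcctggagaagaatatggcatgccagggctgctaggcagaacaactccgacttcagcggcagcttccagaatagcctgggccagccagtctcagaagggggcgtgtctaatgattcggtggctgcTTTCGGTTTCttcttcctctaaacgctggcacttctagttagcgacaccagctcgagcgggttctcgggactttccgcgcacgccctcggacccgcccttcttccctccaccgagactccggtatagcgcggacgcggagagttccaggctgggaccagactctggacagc
B2m, chr3:129549080-129549379, plus strand: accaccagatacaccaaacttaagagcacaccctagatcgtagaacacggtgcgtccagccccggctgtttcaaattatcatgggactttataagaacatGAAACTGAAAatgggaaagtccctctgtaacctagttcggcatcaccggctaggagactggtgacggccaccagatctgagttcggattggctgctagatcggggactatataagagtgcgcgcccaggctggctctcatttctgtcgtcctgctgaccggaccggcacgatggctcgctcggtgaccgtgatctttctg

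Positions are counted from the start site that sets each window, which for 11 of the 23 genes is not the outermost end of the RefSeq gene record (among them Irf7, Oas1a, Psmb8, Psmb9 and B2m). In the windows of Irf7, Ifit3 and Gbp2 the element began 69, 44 and 31 bases before the start site. In Oas1a, 2 overlapping copies began 41 and 35 bases before it. In Psmb8 the element spanned the start site of the window, beginning 4 bases before it. The Tap1 element began 121 bases upstream of Tap1, and Psmb9 starts on the opposite strand 457 bases away, so that the element lies between both genes, 336 bases from the start of Psmb9 and outside its own window. The windows of Stat2, Mx1, Oasl, Herc6 and Psmb9 held neither motif, which says only that these letters were not in these windows. A match is a description of the sequence and was not tested as a binding site.

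**Figure D1:**
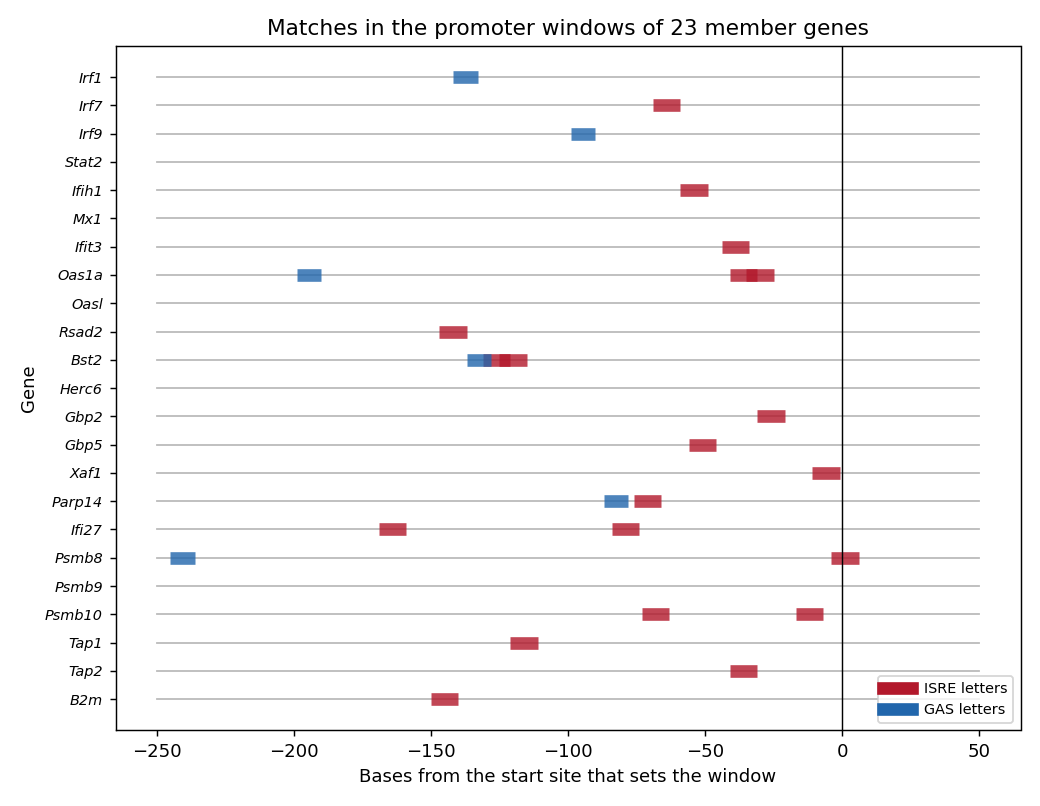
Each grey line is the promoter window of 1 gene, from 250 bases before to 50 bases after the start site (x axis, in bases from the start site). Red blocks are ISRE letters and blue blocks are GAS letters: 16 of the 23 windows hold a red block and 6 hold a blue one.

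The members differed widely in level. On the scale of FPKM, which divides by gene length so that genes can be set side by side, B2m (the light chain of MHC class I) had the highest mean over the 12 rats, 405 FPKM. It was followed by Ifi27, a small membrane protein, at 121 FPKM and by the viral tether Bst2 at 86.2 FPKM, and the ranges of these last genes overlapped, from 47.6 to 225 FPKM and from 55.2 to 119 FPKM. The lowest were Zbp1, a sensor of Z-form nucleic acids, at 0.536 FPKM and Oasl, an oligoadenylate synthetase-like protein, at 1.81 FPKM. Below, levels of a gene in single rats are given in CPM.

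Rats of the same group differed widely in the members, and the same rats were high or low in most of them. Sham rats 1 and 2 were high, and Sham rat 3 was the lowest Sham rat for 30 of the 32 genes, against 33.7% of the 15617 genes tested over all 12 rats. HFE rat 2 was the highest HFE rat for 30 of 32 genes, against 31.1% of all genes. BAIBA rat 1 was the highest BAIBA rat for 28 genes, against 35.4% of all genes, and BAIBA rat 3 the lowest for 26, against 29.1%. HF rat 3 was the highest HF rat for 25, against 33.3%. The median ratio of the highest to the lowest rat over the 32 genes was 2.23 in Sham, 1.73 in HF, 2.46 in HFE and 1.72 in BAIBA, where over all genes tested it was 1.27, 1.34, 1.29 and 1.35.

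**Figure D2:**
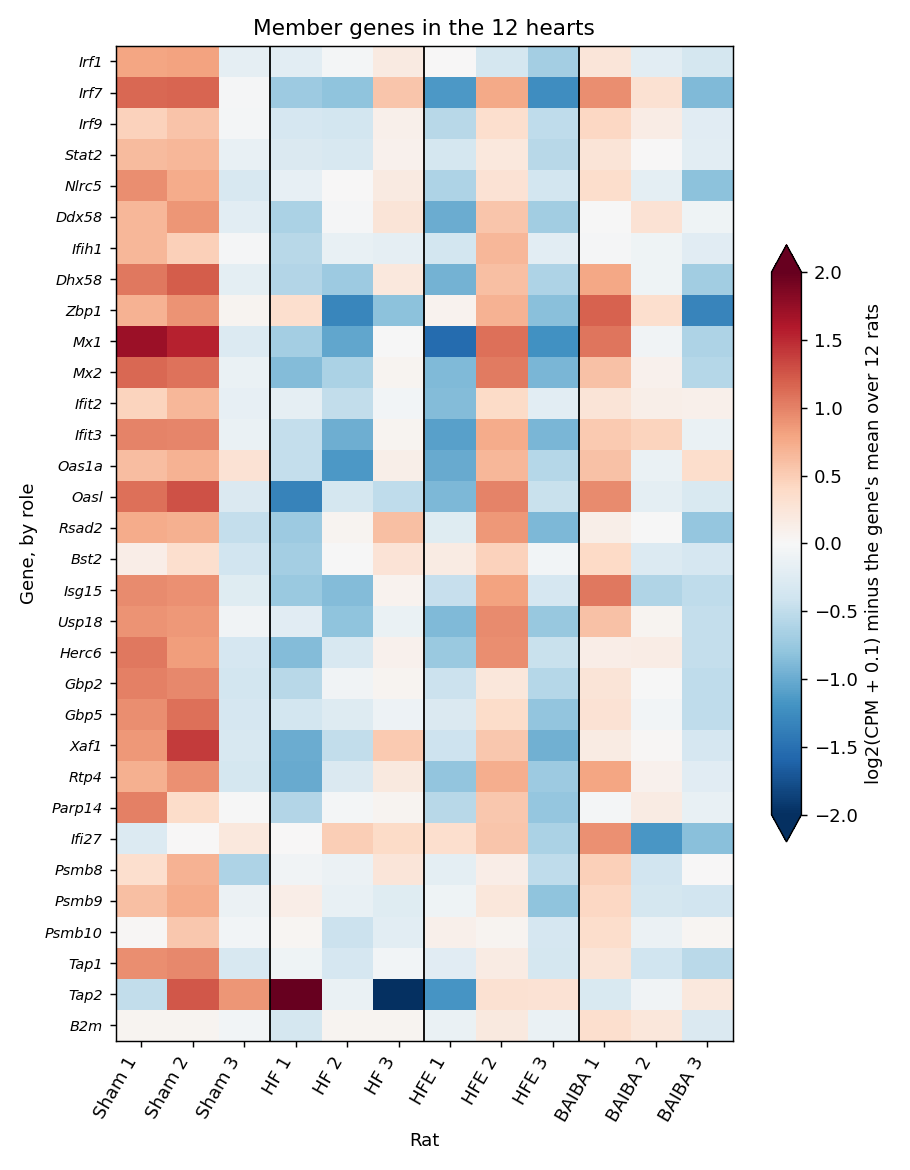
Each row is 1 of the 32 genes and each column 1 rat. Colour gives log2(CPM + 0.1) minus the gene's mean over the 12 rats, from -2 (blue) to 2 (red). The columns of Sham rats 1 and 2, HFE rat 2 and BAIBA rat 1 are mostly red. Those of Sham rat 3, HF rats 1 and 2, HFE rats 1 and 3 and BAIBA rat 3 are mostly blue or pale. The rows of Tap2 and Ifi27 do not follow this order and that of B2m is pale throughout.

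After the mean of each group was taken away, each gene's log2 CPM was correlated over the 12 rats with the mean of the other 31. The median Pearson r was 0.872, 22 of the 32 genes had an r above 0.8 and 30 had one above 0.5. Of the 15585 genes tested that were no member, 0.667% had an r with the members' mean above 0.8 and 6.74% had one above 0.5. The genes closest to the mean were Mx1 (r = 0.98), Mx2 (0.97) and Irf9 (0.97). The least alike were Tap2 (r = -0.25), Ifi27 (0.43) and Psmb10 (0.52). These are descriptions over 12 rats whose values share a library per rat, and no p is given. Among genes outside the list, those most like the members' mean were Ifi44 (r = 0.99), Samd9 (0.98), a locus assembled by the authors without a symbol (0.96), Stat4 (0.96), LOC500956 (0.96), Uba7 (0.95), Slfn4 (0.95), LOC100910979 (0.95), Lgals3bp (0.94) and Cmtr1 (0.94).

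The comparison of HF with Sham asks how the members stood in failing hearts without an intervention. A gene was called where edgeR's adjusted p was under 0.05 and the absolute log2 fold change over 1. None of the 32 members was called in HF against Sham, where 0% of the 14957 genes tested were called, and the lowest adjusted p of a member was 0.805. The log2 fold change was below 0 for 30 of the 32 genes, with a median of -0.74, against 48.1% of all genes, whose median was 0.01. Here and below, the members are not independent, since the same rats were high or low in most of them. A count of members is therefore not a count of separate results. At an unadjusted p under 0.05, 13 members were lower and 0 higher in HF, where 3.53% of all genes were lower and 2.47% higher. DESeq2 called 0 members and 24 of the 23314 genes it tested. At an unadjusted p under 0.05 it had 21 members and 505 of all genes lower. Its lowest adjusted p of a member was 0.0606. Limma on log2(FPKM + 1) called 0 members and 0 genes, with 12 members and 590 of 19015 genes lower. Without Sham rat 3 the edgeR count of 13 became 25, where 616 of 15338 genes were lower. Without Sham rat 1 it became 4 (299 of 15310 genes), and without Sham rat 2 it became 3 (275 of 15387). It also became 7 without HF rat 1 (647 of 15211) and 4 without HF rat 2 (489 of 15360). With the replicate number as a block it became 5 (430 of 14957).

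Among the transcription factors, Irf7, the factor that amplifies the type I response, had 114, 115 and 50.6 CPM in Sham rats 1 to 3. It had 31.0, 29.5 and 75.6 CPM in HF, 23.1, 87.1 and 21.8 CPM in HFE, and 97.7, 63.4 and 27.9 CPM in BAIBA. The 2 highest Sham rats stood above every infarcted rat, but Sham rat 3 lay below HF rat 3, so the groups overlapped. In HF against Sham its log2 fold change was -1.04 (SE 0.50, edgeR adjusted p = 0.808).

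Stat2, which carries the type I signal to the nucleus, had 73.0, 74.6 and 42.2 CPM in Sham and 38.5, 37.4 and 49.8 CPM in HF. It had 36.8, 54.5 and 31.97 CPM in HFE and 55.9, 47.1 and 40.6 CPM in BAIBA. The same 2 Sham rats stood above all others and Sham rat 3 lay within the HF range, with a log2 fold change in HF of -0.60 (SE 0.24, edgeR adjusted p = 0.805). For Irf9, the partner of STAT2, it was -0.54, for Irf1, a factor induced by interferon gamma, -0.55, and for Nlrc5, which drives MHC class I genes, -0.54. All 5 transcription factors and regulators thus had a log2 fold change below 0, and 2 of them had an unadjusted p under 0.05.

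The 4 sensors of nucleic acids had log2 fold changes of -0.61 (Ddx58, encoding RIG-I), -0.70 (Ifih1, encoding MDA5), -1.13 (Dhx58, encoding LGP2) and -1.10 (Zbp1) in HF against Sham. Ifih1 had the lowest p of all members. It had 26.4, 23.2 and 16.4 CPM in Sham and 11.3, 15.0 and 14.6 CPM in HF, so that every HF rat lay below every Sham rat. The SE of its fold change was 0.20, the edgeR adjusted p was 0.805, and the two-sided exact permutation p was 0.1. That is the smallest that 3 rats against 3 can give, and every gene whose groups do not overlap has it. In BAIBA it had 16.3, 15.6 and 14.2 CPM, again below all Sham rats, with a log2 fold change of -0.51 against Sham (SE 0.18, edgeR adjusted p = 0.616). In HFE it had 12.9, 26.4 and 14.4 CPM, and HFE rat 2 reached the level of Sham rat 1.

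The most negative values in HF against Sham were those of Mx1, Oasl and Mx2, which are antiviral effectors. The class was not uniform, and its values reached up to -0.36 for Rsad2 and -0.15 for Bst2. Mx1, a GTPase that blocks viral ribonucleoproteins, had 69.4, 61.3 and 17.3 CPM in Sham. It had 13.1, 10.2 and 21.0 CPM in HF, 7.19, 45.3 and 9.05 CPM in HFE, and 44.5, 19.9 and 13.6 CPM in BAIBA. Its range over the 12 rats was 9.65-fold, and 1 Sham rat lay within the HF range. Its log2 fold change in HF against Sham was -1.75 (SE 0.58, edgeR adjusted p = 0.805), the largest of the list.

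Oasl had 9.12, 10.3 and 3.41 CPM in Sham and 1.61, 3.25 and 2.91 CPM in HF. It had 2.20, 8.44 and 3.04 CPM in HFE and 8.20, 3.66 and 3.38 CPM in BAIBA. All HF rats lay below all Sham rats, with only a small step from HF rat 2 to Sham rat 3, and the log2 fold change was -1.56 (SE 0.46, edgeR adjusted p = 0.805). Oas1a, an oligoadenylate synthetase that activates RNase L, had 13.3, 14.1 and 10.6 CPM in Sham and 6.19, 3.86 and 9.37 CPM in HF. Here too the groups did not overlap, and the log2 fold change was -0.97 (SE 0.31, edgeR adjusted p = 0.805). For both genes the exact permutation p was 0.1. It follows from the lack of overlap by which these genes were picked, and adds nothing to it.

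Ifit3, which binds foreign RNA together with its relatives, had 34.6, 34.2 and 15.8 CPM in Sham and 12.4, 8.77 and 17.95 CPM in HF. It had 8.12, 29.1 and 9.12 CPM in HFE and 25.0, 23.5 and 15.7 CPM in BAIBA. Sham rat 3 lay within the HF range, and the log2 fold change in HF was -1.12 (SE 0.38, edgeR adjusted p = 0.805). Rsad2, encoding viperin, had 39.98, 39.2 and 17.1 CPM in Sham and 14.3, 24.8 and 36.1 CPM in HF. It had 20.1, 43.5 and 12.8 CPM in HFE and 25.9, 23.8 and 13.9 CPM in BAIBA. Its highest value was in an exercised rat, HFE rat 2, and the log2 fold change in HF was -0.36 (SE 0.44, edgeR adjusted p = 0.920). Of the remaining effectors, Mx2 had a log2 fold change of -1.24, Ifit2 of -0.59 and Bst2 of -0.15. Mx1 and Mx2, the Ifit genes, the Oas genes and the Gbp genes are sets of similar sequence, and how reads shared between them were counted is not given in the sources used here.

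In the ISG15 pathway, Isg15, the ubiquitin-like modifier, had 17.0, 16.5 and 7.35 CPM in Sham. It had 5.16, 4.72 and 9.16 CPM in HF, 6.32, 15.3 and 6.90 CPM in HFE, and 18.2, 5.71 and 6.09 CPM in BAIBA. Its highest value was thus in BAIBA rat 1, and the log2 fold change in HF was -1.10 (SE 0.39, edgeR adjusted p = 0.805). Usp18, the enzyme that removes ISG15 from proteins, had 41.4, 40.4 and 21.1 CPM in Sham and 19.0, 12.6 and 20.1 CPM in HF. The groups were apart by the step from Sham rat 3 to HF rat 3, and the log2 fold change was -0.997 (SE 0.30, edgeR adjusted p = 0.805, exact permutation p = 0.1). Herc6, the ligase that attaches ISG15 in rodents, had a log2 fold change of -0.96.

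Gbp2, a guanylate-binding GTPase induced by interferon gamma, had 70.4, 68.7 and 27.3 CPM in Sham and 23.9, 33.4 and 36.5 CPM in HF. It had 26.1, 41.0 and 23.6 CPM in HFE and 42.2, 35.0 and 24.6 CPM in BAIBA. Sham rat 3 lay among the infarcted rats while the other Sham rats lay above all of them, and the log2 fold change in HF was -0.83 (SE 0.39, edgeR adjusted p = 0.808). Its neighbour Gbp5 had a log2 fold change of -0.94. Of the 4 other interferon-induced genes, Xaf1 (-0.997), Rtp4 (-0.82) and Parp14 (-0.69) had log2 fold changes below 0, and Ifi27 had one of 0.32 (SE 0.16, edgeR adjusted p = 0.808).

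**Figure D3:**
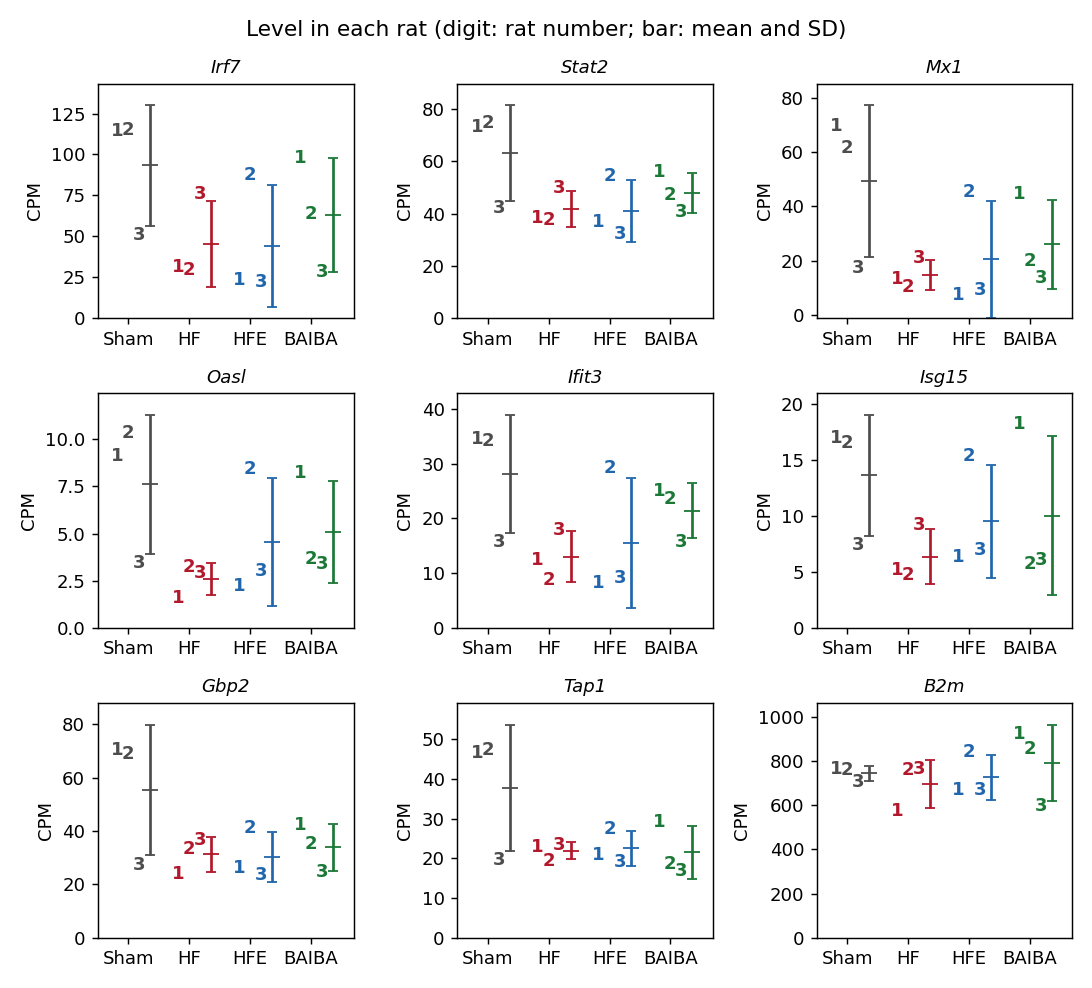
Level of 9 genes in each rat (y axis, CPM, from 0 unless an error bar reaches below it). Digits are rat numbers within the group on the x axis, and the bar beside them is the mean with its SD. Sham rats 1 and 2 lie together at the top of the Sham group in every panel, Sham rat 3 lies within the range of the infarcted rats, and HFE rat 2 lies above the other HFE rats.

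The antigen processing genes were less uniform. Psmb8 and Psmb9 encode catalytic subunits of the immunoproteasome, and Tap1 encodes a subunit of the peptide transporter. Psmb8 had 16.1, 20.6 and 8.21 CPM in Sham, 12.2, 11.7 and 15.0 CPM in HF, 11.1, 14.0 and 8.86 CPM in HFE, and 17.7, 9.69 and 12.8 CPM in BAIBA. All groups overlapped for Psmb8, with a log2 fold change of -0.21 in HF (SE 0.32, edgeR adjusted p = 0.936). Psmb9 had 21.6, 24.1 and 13.2 CPM in Sham, 15.7, 12.9 and 12.02 CPM in HF, 13.5, 16.8 and 8.17 CPM in HFE, and 19.0, 11.2 and 10.98 CPM in BAIBA. Here 2 Sham rats lay above every infarcted rat, and the log2 fold change in HF was -0.54 (SE 0.23, edgeR adjusted p = 0.805).

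Tap1 had 46.5, 47.4 and 19.4 CPM in Sham, 22.9, 19.4 and 23.5 CPM in HF, 20.9, 27.5 and 19.1 CPM in HFE, and 29.1, 18.5 and 16.8 CPM in BAIBA. Sham rats 1 and 2 lay well above all 9 infarcted rats and Sham rat 3 lay among them, and the log2 fold change in HF was -0.79 (SE 0.33, edgeR adjusted p = 0.805). B2m had 766, 761 and 706 CPM in Sham, 573, 758 and 762 CPM in HF, 669, 843 and 668 CPM in HFE, and 924, 857 and 598 CPM in BAIBA. Its whole range was 1.61-fold, and its log2 fold change in HF was -0.10 (SE 0.13, edgeR adjusted p = 0.926). Psmb10, the third immunoproteasome subunit, had a log2 fold change of -0.39.

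Tap2, the partner of Tap1 in the transporter, did not follow the mean of the other members (r = -0.25). It had 3.06, 10.5 and 8.14 CPM in Sham, 32.05, 3.99 and 0.265 CPM in HF, 1.86, 5.40 and 5.38 CPM in HFE, and 3.51, 4.17 and 5.07 CPM in BAIBA. The highest and lowest rats were both HF rats, HF rat 1 with 559 reads and HF rat 3 with 5, and the log2 fold change in HF against Sham of 0.74 had an SE of 1.38 (edgeR adjusted p = 0.946).

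The immunoproteasome was also set against the standard subunits it replaces, as a ratio of FPKM values within each rat. Psmb8 to Psmb5 was 0.132 ± 0.060 (SD, n = 3) in Sham, 0.106 ± 0.0099 in HF, 0.0826 ± 0.019 in HFE and 0.115 ± 0.020 in BAIBA. The lowest single ratio, 0.0627, and the highest, 0.171, were both in Sham rats. Psmb9 to Psmb6 was 0.193 ± 0.068 in Sham, 0.125 ± 0.023 in HF, 0.108 ± 0.033 in HFE and 0.134 ± 0.029 in BAIBA. Psmb10 to Psmb7 was 0.373 ± 0.091 in Sham, 0.277 ± 0.063 in HF, 0.276 ± 0.047 in HFE and 0.344 ± 0.038 in BAIBA. For all 3 pairs the Sham mean was the highest and the HFE mean the lowest, and the ranges of the groups overlapped in every case.

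All 3 infarcted groups were also set against Sham. These comparisons share the same 3 Sham rats, so their values are given side by side and are not independent. In HFE against Sham, no member was called (0% of 14804 genes tested). The log2 fold change was below 0 for 30 members, with a median of -0.64, and 1 member was lower and 0 were higher at an unadjusted p under 0.05, where 5.15% of all genes were lower and 6.04% higher. With the replicate number as a block 12 members were lower at that threshold, where 700 of 14804 genes were. Without Sham rat 3 it was 10 members (775 of 15120 genes), and without HFE rat 2 it was 19 (708 of 15157). In BAIBA against Sham, no member was called (0.0402% of 14920 genes). The log2 fold change was below 0 for 31 members, with a median of -0.51, and 1 member was lower and 0 higher at that p, where 3.28% of all genes were lower and 4.13% higher. Here the block gave 16 lower (427 of 14920 genes). Leaving out Sham rat 3 gave 19 (565 of 15292), and leaving out BAIBA rat 1 gave 5 (558 of 15183). DESeq2 called 0 members in either comparison, and 72 of 22998 and 78 of 23348 genes. At an unadjusted p under 0.05 it had 8 and 9 members lower, where 707 and 498 of all genes were. Limma on log2(FPKM + 1) called 0 members, with 1 lower in each, where 1160 of 18731 and 508 of 18941 genes were.

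**Figure D4:**
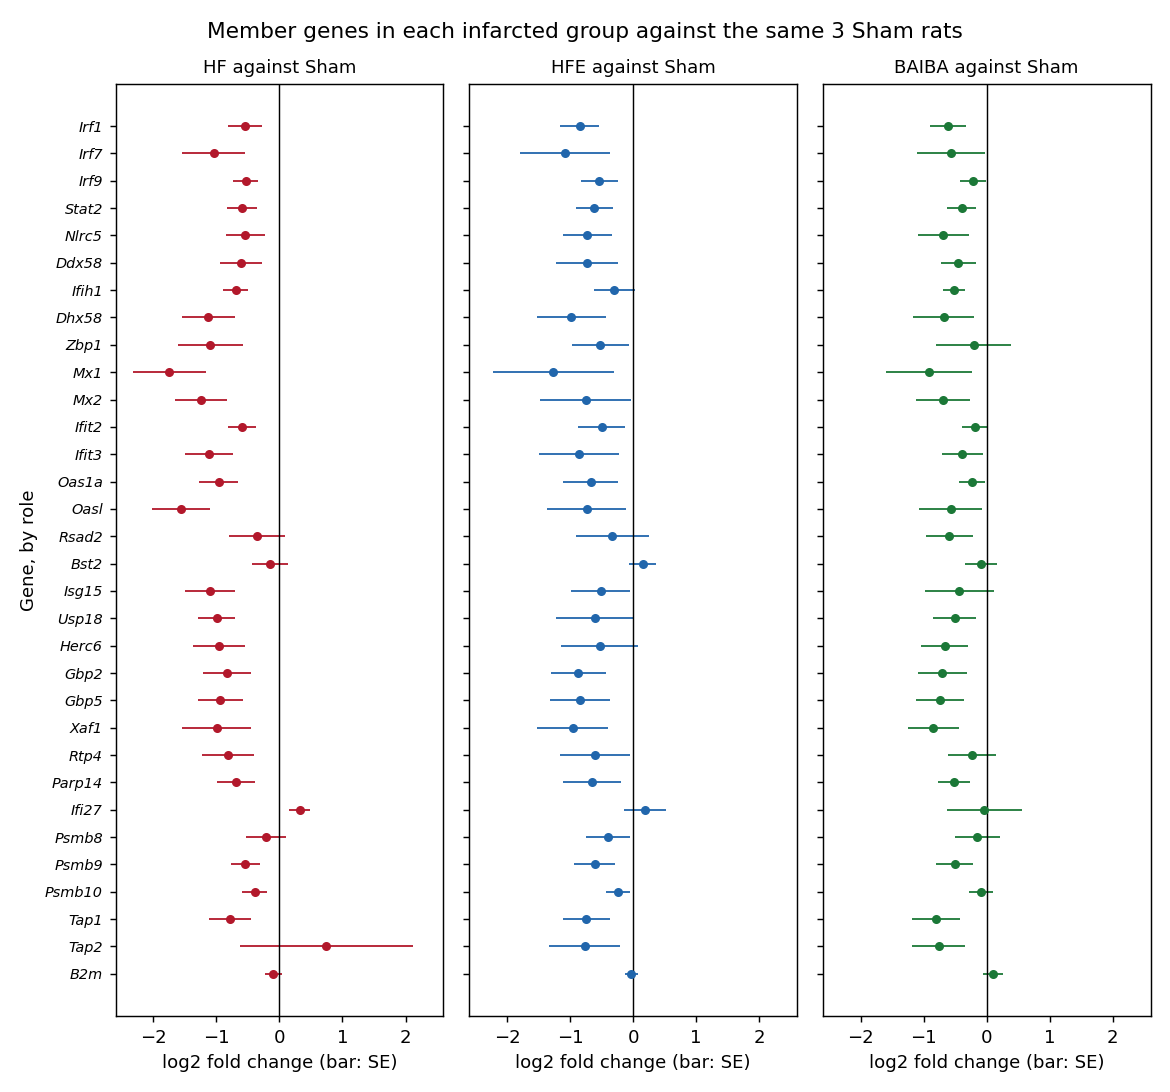
Log2 fold change of each of the 32 genes (x axis, bars are SE) in HF, HFE and BAIBA against the same 3 Sham rats, from edgeR. Most points lie left of 0 in all 3 panels, Mx1 has the most negative value in each, and Ifi27, Bst2 and B2m lie near 0 apart from the value of 0.32 for Ifi27 in HF.

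With the 9 infarcted rats pooled and set against Sham in a fit of all 12 rats, no member was called (0% of 15617 genes). The log2 fold change was below 0 for 31 of the 32, with a median of -0.62, against 48.4% of all genes, and Ifi27 was the exception with 0.15. At an unadjusted p under 0.05, 11 members were lower and 0 higher, where 3.52% of all genes were lower and 2.84% higher. DESeq2 called 0 members and 8 of 24604 genes, with 13 members and 556 genes lower at that p. Limma on log2(FPKM + 1) called 0 members and 2 of 19074 genes, with 9 members and 716 genes lower. The edgeR count rested on single rats. It was 0 without Sham rat 1 (296 of 15985 genes lower) and 0 without Sham rat 2 (351 of 15993). It was 20 without Sham rat 3 (593 of 15996) and 23 without HFE rat 2 (538 of 16013). Leaving out any other single rat gave from 5 (without BAIBA rat 3, 614 of 15996 genes) to 14 (without BAIBA rat 1, 562 of 15912). The number of members below 0 stayed between 27 and 32 throughout. HF rat 1 and BAIBA rat 1 were the hearts rich in T cell and macrophage RNA. Without both, all 32 members were below 0, against 50.4% of all genes. The count at that threshold remained 11, where 655 of 15718 genes were lower.

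The lowest p in this comparison belonged to Irf1 and Tap1. Irf1 had 45.8, 46.4 and 23.5 CPM in Sham, and its infarcted rats lay between 16.5 and 31.5 CPM. Its log2 fold change was -0.67 (SE 0.21, edgeR adjusted p = 0.740), and that of Tap1 was -0.78 (SE 0.25, edgeR adjusted p = 0.740). The two-sided exact permutation p over the 12 rats was 0.0455 for Irf1 and 0.0545 for Tap1, neither adjusted for the 32 members.

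Exercise was compared with no exercise after infarction by setting HFE against HF. No member was called (0% of 14938 genes), and 0 members were lower or higher at an unadjusted p under 0.05, where 3.29% of all genes were lower and 4.34% higher. DESeq2 and limma also gave 0 members at both thresholds. Of all genes, DESeq2 called 22 of 23253 and limma on log2(FPKM + 1) called 2 of 18983. Of the members, 21 had a log2 fold change above 0 and 11 one below 0, with a median of 0.07 and a range from -1.52 (Tap2) to 0.81 (Oasl). The sign of the median turned on HFE rat 2: without it 27 members were below 0 and the median was -0.37. On log2(FPKM + 0.1) the median was -0.0045, with 17 members below 0.

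BAIBA was set against HF to ask the same of the metabolite. No member was called (0% of 15039 genes), and 2 members were higher and 0 lower at an unadjusted p under 0.05, where 2.81% of all genes were higher and 2.73% lower. DESeq2 called 0 members and 31 of 23552 genes, with 4 members and 462 genes higher at that p. Limma on log2(FPKM + 1) called 0 members and 0 genes, with 2 members and 487 of 19162 genes higher. Members with a log2 fold change above 0 numbered 26, with a median of 0.19. Ifit2 had 51.8, 42.1 and 56.9 CPM in HF and 70.4, 64.0 and 63.4 CPM in BAIBA. All BAIBA rats lay above all HF rats, and the log2 fold change was 0.39 (SE 0.13, edgeR adjusted p = 0.851, exact permutation p = 0.1). Oasl also had groups that did not overlap, with a log2 fold change of 0.97 (SE 0.43, edgeR adjusted p = 0.851), and the step from HF rat 2 to BAIBA rat 3 was from 3.25 to 3.38 CPM. Ifit3 had a log2 fold change of 0.71 (SE 0.29, edgeR adjusted p = 0.851), with HF rat 3 above BAIBA rat 3. Without BAIBA rat 1 the number of members above 0 was 19 and the median 0.07. The edgeR count of 2 became 7 without BAIBA rat 3 (398 of 15456 genes higher) and 6 without HF rat 3 (331 of 15439). It became 0 without HF rat 2 (305 of 15448).

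The 2 interventions were compared directly in BAIBA against HFE. No member was called (0.0808% of 14844 genes), and 0 were higher or lower at an unadjusted p under 0.05, where 4.68% of all genes were higher and 4.88% lower. DESeq2 and limma also gave 0 members at both thresholds. Of all genes, DESeq2 called 171 of 23294 and limma on log2(FPKM + 1) called 2 of 18920. The log2 fold change was above 0 for 26 members, with a median of 0.15 and a largest value of 0.52 for Irf7. Without HFE rat 2, 31 members were above 0 and 13 were higher at that p, where 497 of 15331 genes were higher. Without BAIBA rat 1, 20 members were below 0 with a median of -0.07. The replicate number as a block treats rats of the same number as pairs, which no label states. With it 0 members were called and 0 had an unadjusted p under 0.05. The median was 0.23, and 32 of all genes were called in place of 12.

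The members were set beside leukocyte markers rat by rat. HFE rat 2 had the lowest T cell sum of all 12 rats, 16.3 CPM over 7 markers, and the lowest macrophage sum, 88.7 CPM over 8 markers. HF rat 1, with 268 CPM of T cell markers, had a median ratio of 0.656 of the 32 genes to their mean over all rats, below HF rat 2 (0.743) and HF rat 3 (0.973). The macrophage sums of HF rats 1 to 3, 130, 141 and 237 CPM, ran in the same order as these ratios, and HF rat 3 had the second highest macrophage sum of all rats. This order did not hold in the other groups. In BAIBA, rat 3 had 181 CPM and a ratio of 0.712, and rat 2 had 143 CPM and 0.905. In Sham, rat 3 had 160 CPM and 0.806, and rat 2 had 155 CPM and 1.63. In HFE, rat 2 had the lowest sum and the highest ratio. BAIBA rat 1, with the most macrophage RNA, had a ratio of 1.26, and Sham rats 1 and 2 had 1.58 and 1.63 with T cell sums of 27.8 and 29.4 CPM. By group, T cell sums lay between 21.7 and 29.4 CPM in Sham, 22.9 and 268 in HF, 16.3 and 27.3 in HFE, and 26.4 and 46.8 in BAIBA. Macrophage sums lay between 155 and 179 CPM in Sham, 130 and 237 in HF, 88.7 and 122 in HFE, and 143 and 320 in BAIBA. The part of these cells in the members' values was not tested.

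**Figure D5:**
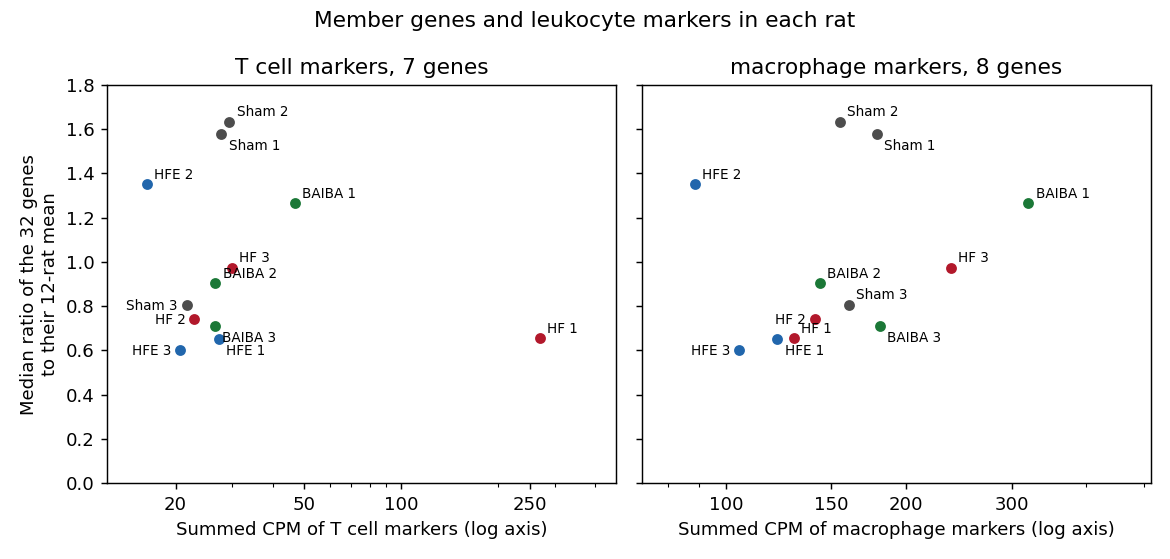
Each point is 1 rat. The x axes (log scale) are the summed CPM of 7 T cell markers and of 8 macrophage markers, and the y axis is the median over the 32 genes of the ratio of the rat's CPM to the gene's mean over 12 rats. HF rat 1 stands alone at 268 CPM of T cell markers with a ratio of 0.656, and HFE rat 2 has the lowest sums on both x axes with a ratio of 1.35.

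Upstream of the members, RNA of the interferons themselves was at or near 0 reads. Of 9 interferon genes measured, 5 (Ifnb1, Ifna2, Ifne, Ifnl1 and Ifnl3) had 0 reads among 195984749 reads of the 12 rats. Over the 12 rats together this allows a level of up to 0.0153 CPM from counting error alone. The level that 0 reads allow in a single rat is higher, since each rat has only a part of these reads. Ifna4 and Ifnk had 2 reads each and Ifna5 had 1. Ifng had 1 to 6 reads in every rat, 33 in all. The receptors and kinases that pass on the signal showed small values, with a median log2 fold change of -0.02 over 9 genes in HF against Sham and none at an unadjusted p under 0.05. The lowest p among them belonged to the type I receptor chains Ifnar2 (0.22, edgeR adjusted p = 0.808) and Ifnar1 (0.14, edgeR adjusted p = 0.829). Among 10 other STAT and IRF factors tested and 9 negative regulators, the count at that p was also 0, with median log2 fold changes of 0.0043 and 0.15.

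Downstream, a further 53 tested interferon-stimulated genes outside the list were examined. In HF against Sham 47 of them had a log2 fold change below 0, against 48.1% of all genes. The median was -0.37 and none was called. At an unadjusted p under 0.05, 17 were lower and 1 higher, where 3.53% of all genes were lower and 2.47% higher. The lowest p belonged to Parp9 (-0.93, SE 0.27, edgeR adjusted p = 0.805) and to Eif2ak2, encoding the kinase PKR (-0.63, SE 0.19, edgeR adjusted p = 0.805). With the infarcted groups together, 46 of 53 were below 0, against 48.4% of all genes. At that p 16 were lower and 1 higher, where 3.52% of all genes were lower and 2.84% higher. These genes were read in the same rats as the members, so they are not a separate result. Their counts with single rats left out are not given here. Of 11 other antigen processing genes tested, 10 had a log2 fold change below 0 in HF against Sham, with a median of -0.15 and 0 at that p. The 3 standard proteasome subunits Psmb5, Psmb6 and Psmb7 were all above 0, with a median of 0.06.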

How the data were processed

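Left ventricular RNA of 12 rats (4 groups of 3) was sequenced from oligo(dT) libraries. Per the labels and the study's methods, the authors aligned reads with HISAT2 and deposited read counts per gene from featureCounts (Subread) and FPKM values; versions are not given in the sources used here, and the build listed with the rat samples (mm9) is a mouse build. Total counts per rat ranged from 14812541 to 19732588. Counts were tested with edgeR 4.0.16 (TMM, filterByExpr, quasi-likelihood test), in fits of the 6 rats compared, or of all 12 for the infarcted groups against Sham, with Benjamini-Hochberg adjustment over all genes tested and calls where the adjusted p was under 0.05 with a log2 fold change beyond 1 in size. CPM values are TMM-scaled. Exact permutation tests used log2(CPM + 0.1) and were run with scipy. Alternatives were DESeq2 1.42.0, limma 3.58.1 on log2(FPKM + 1) and log2(FPKM + 0.1), other scalings and filters, the replicate number as a block, and leaving out each rat. On simulated counts with 200 changed genes, the edgeR step was tested for HF against Sham and for the infarcted groups. The members, the gene lists and the named genes (11 fixed members, and, per comparison, the members with the largest change whose groups did not overlap, at most 3 in each direction) were chosen with earlier results of these data known. Nothing says that rats of 1 group were technical repeats, and no pair of them held identical counts. Rats with the same number deviated together between HFE and BAIBA (r from 0.118 to 0.224). Single values of this size occurred elsewhere, 0.125 for HF and BAIBA rats 1 and 0.115 for Sham and BAIBA rats 3. The labels do not say that rats were paired by number, and rats with different numbers were not compared, so pairing was not shown. Promoter windows came from RefSeq (GRCr8). No reference genome was used.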

Additional observations from a re-analysis of the deposited data

How the results depend on the processing

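The number of members called was 0 in all 7 comparisons, and it was 0 as well under DESeq2, both limma scales, RLE or library-size scaling, both other filters on low counts, 1 fit of all 12 rats, calls without a limit on the fold change, and with any 1 rat left out (0 to 0). With the replicate number as a block it was also 0. In the infarcted groups against Sham it was 0 also without HF rat 1 and BAIBA rat 1, a choice made after seeing the data. Of 20 named log2 fold changes, 2 changed sign: in HF against Sham, Psmb8 ranged from -0.49 to 0.087 with 1 rat left out, above 0 without Sham rat 2, and B2m from -0.16 to 0.031, above 0 without HF rat 1. Counts at an unadjusted p depended on single rats, as given with each comparison, and the cause was not tested. The exact permutation test of a single gene cannot give a p under 0.1 with 3 rats against 3. It gives 0.1 for any gene whose groups do not overlap, so for genes named by that rule it is no further evidence.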

Other observations

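Ifit1, a relative of Ifit2 and Ifit3 that is no member and was picked out after its values were seen, went in and out between rats. It had 32.3, 34.1 and 15.3 CPM in Sham, 8.60, 12.3 and 19.4 CPM in HF, 15.8, 0.208 and 0.380 CPM in HFE, and 0.390, 21.5 and 0.241 CPM in BAIBA. In 4 of 12 rats it lay below 0.4 CPM, and these include HFE rat 2 and BAIBA rat 1, where Ifit3 had 29.1 and 25.0 CPM. How reads shared among the Ifit genes were counted is not given in the sources used here, and why the 4 rats differ was not tested.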
